A study of Rattus norvegicus with 6 samples.

Results

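The genes described here are those of the secreted protein chemerin, its signalling receptor and the carriers and receptors of vitamin A: Rarres2, Cmklr1, Rbp4, Stra6, Rara and Rarb. The list was chosen from the signal of Rarres2, which was higher after treatment on these same arrays, so the values of Rarres2 are a description and carry no test, and the other genes were tested. The list holds 6 genes, where 15281 genes could be named on the array. Of the 6, 5 were matched to 9 probes through the RefSeq transcript that each probe carries, and Rarb matched none and was not analysed here. All 9 probes entered the fit, since in at least 1 group each exceeded background clearly on all 3 arrays.

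The animals were male Sprague-Dawley rats of the Crl:CD(SD) stock, bought at an age of 5 weeks and kept on a basal diet. The treated group of 3 rats was given the brominated diol 2,2-bis(bromomethyl)-1,3-propanediol, called BBMP here, over 4 weeks at a dose of 1000 mg/kg/day. The control group of 3 rats was given corn oil over the same 4 weeks. Total RNA of the renal cortex was labelled with Cy3 and read on 1 Agilent array per rat, and the study's design text calls the rats biological replicates. All values below are the processed signal of a probe divided by the 75th percentile of its own array, or the log2 of that ratio. A level of 1 therefore equals the signal that 75% of the probes of that array do not exceed. Probes bind with unequal strength, so changes are read between arrays within 1 probe. Where probes are ordered by brightness or marker levels are summed, this describes signal and not the amount of RNA.

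The share of probes well above background was 70.5% to 72.7% on the BBMP arrays and 67.2% to 68.6% on the corn oil arrays. The 3 BBMP arrays lay on 1 slide, scanned on 1 day, and the 3 corn oil arrays on another slide scanned on another day, so treatment cannot be told apart from slide and scan day. By position, all BBMP arrays lay in row 1 of their slide and corn oil 3 was the only control in row 1 of the other, so fits by slide row set the BBMP arrays against that 1 control. Among 42657 tested probes, limma called 7594 (17.8%) at an adjusted p under 0.05, 4411 of them higher with BBMP (10.3%) and 3183 lower (7.46%). The higher share among the calls was 58.1%, against 36.1% when arrays were scaled to their medians and 36.9% after another background correction (normexp). The median difference over all tested probes was 0.055 on the log2 scale, and −0.059 after normexp. The 9 markers of renal cortex were all well above background, among them Lrp2, the endocytic receptor megalin. Their summed level was 1619 to 1740 in BBMP cortex and 1569 to 1772 in corn oil cortex. A summed level adds the level of the brightest tested probe of each gene. It mostly follows the few brightest probes and is no measure of cell content. In whole tissue, fewer cells of a type and less RNA per cell cannot be told apart.

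Chemerin is made as an inactive precursor, mostly by liver and adipose tissue, and proteases of the clotting and inflammatory cascades activate it by removing residues from its carboxyl end. The active form attracts macrophages, dendritic cells and natural killer cells through the receptor CMKLR1. Its gene carries the name retinoic acid receptor responder because it was found as a gene induced by a synthetic retinoid. Vitamin A travels in plasma as retinol bound to RBP4 and transthyretin. In the kidney, RBP4 that passes the glomerulus is taken back up by megalin in the proximal tubule. STRA6 lets retinol from RBP4 into some cells, and the product retinoic acid acts through the nuclear receptors RAR and RXR.

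Rarres2, the gene of chemerin, was measured by probe A_44_P281481. Its level was 13.2, 13.6 and 13.3 in the 3 BBMP cortices, against 4.87, 8.45 and 5.15 in the 3 corn oil cortices. All 3 treated animals were above all 3 controls, and the treated animals lay close together, whereas corn oil 2 stood above the other controls. On the log2 scale the mean was 3.74 ± 0.018 with BBMP and 2.58 ± 0.44 with corn oil (SD, n = 3 each), a difference of 1.17 or 2.24-fold. The full spread within the group was 0.035 on the log2 scale with BBMP and 0.79 with corn oil. The signal was not saturated on any array, and probes of like brightness had a median difference of 0.0015. Without corn oil 2 the difference was 1.42, and over the alternatives tried it stayed between 1.02 and 1.42.

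The promoter of Rarres2 is shown because its name ties the gene to retinoic acid, with that of Rara, the nuclear receptor whose brighter probe was lower with BBMP, and that of Rarb, a textbook retinoic acid target, for comparison. Each is the RefSeq sequence of the GRCr8 assembly from 250 bases before to 50 bases after 1 transcript start of the gene, 5′ to 3′ on the strand of the gene. The start is the one that the promoter table takes, and for these 3 genes the annotation places the outer end of the gene farther upstream, so other starts of the same gene were not searched. Capitals mark the half-sites to which RAR and RXR are known to bind, searched on both strands in 4 spellings. These were AGGTCA as the consensus form, GGGTCA as its closest relative, and in the same way AGTTCA as another common form with GGTTCA as the last of the 4.
Rarres2 promoter, chr4:78856359-78856658, minus strand: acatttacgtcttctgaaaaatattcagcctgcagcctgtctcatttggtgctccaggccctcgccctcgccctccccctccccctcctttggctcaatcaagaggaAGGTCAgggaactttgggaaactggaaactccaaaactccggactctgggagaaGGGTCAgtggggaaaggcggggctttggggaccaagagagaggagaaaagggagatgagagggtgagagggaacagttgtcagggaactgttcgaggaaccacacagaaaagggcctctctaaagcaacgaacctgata
Rara promoter, chr10:84411217-84411516, plus strand: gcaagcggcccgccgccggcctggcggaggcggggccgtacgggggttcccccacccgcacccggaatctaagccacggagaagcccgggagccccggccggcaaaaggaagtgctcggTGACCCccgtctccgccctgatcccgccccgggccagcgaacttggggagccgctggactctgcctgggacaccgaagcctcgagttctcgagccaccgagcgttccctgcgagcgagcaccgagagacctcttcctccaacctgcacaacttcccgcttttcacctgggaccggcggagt
Rarb promoter, chr15:11336142-11336441, plus strand: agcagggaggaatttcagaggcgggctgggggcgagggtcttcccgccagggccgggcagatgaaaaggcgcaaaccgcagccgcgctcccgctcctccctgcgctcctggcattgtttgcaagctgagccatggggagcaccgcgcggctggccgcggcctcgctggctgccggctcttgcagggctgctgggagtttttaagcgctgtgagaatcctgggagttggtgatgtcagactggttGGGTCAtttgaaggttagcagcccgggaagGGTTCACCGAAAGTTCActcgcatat
The Rarres2 window held 2 half-sites on its own strand, AGGTCA at 143 and GGGTCA at 89 bases before the start. Both lay inside the annotated gene, whose outer end, base 78856652, falls near the upstream edge of the window. At least 1 half-site was present in 44.4% of 33469 rat promoters of the same length, so its presence in the Rarres2 window is common. A direct repeat, a pair of half-sites in the same direction with 1, 2 or 5 bases between, is the arrangement that RAR and RXR bind together, and the Rarres2 and Rara windows held none. The Rarb window held the repeat with 5 bases between, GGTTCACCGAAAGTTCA, at 24 bases after the start, as did 128 of the promoters (0.382%). The repeat with 1 base between was found in 78 promoters (0.233%) and that with 2 bases in 57 (0.170%). The Rara window held 1 half-site, on the opposite strand, at 131 bases before the start. The Rara and Rarb windows lay wholly inside their annotated genes. Among the other windows, which are not printed, Cmklr1 and Stra6 held 1 half-site each and Rbp4 held 0. These matches describe letters in the windows, and binding was not measured.

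Of the 8 probes of the other members, limma called 0 higher with BBMP, where the share over all tested probes was 10.3%, and 1 lower, where it was 7.46%. The call was a probe of Rara. The groups did not overlap at 2 of the 8 probes, where they did not overlap at 43.4% of all tested probes. The median difference over the 8 probes was −0.25 on the log2 scale, against 0.055 over all tested probes. Their unadjusted p was under 0.05 at 2 of 8 probes, where it was under 0.05 at 36.5% of all tested probes.

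**Figure D1:**
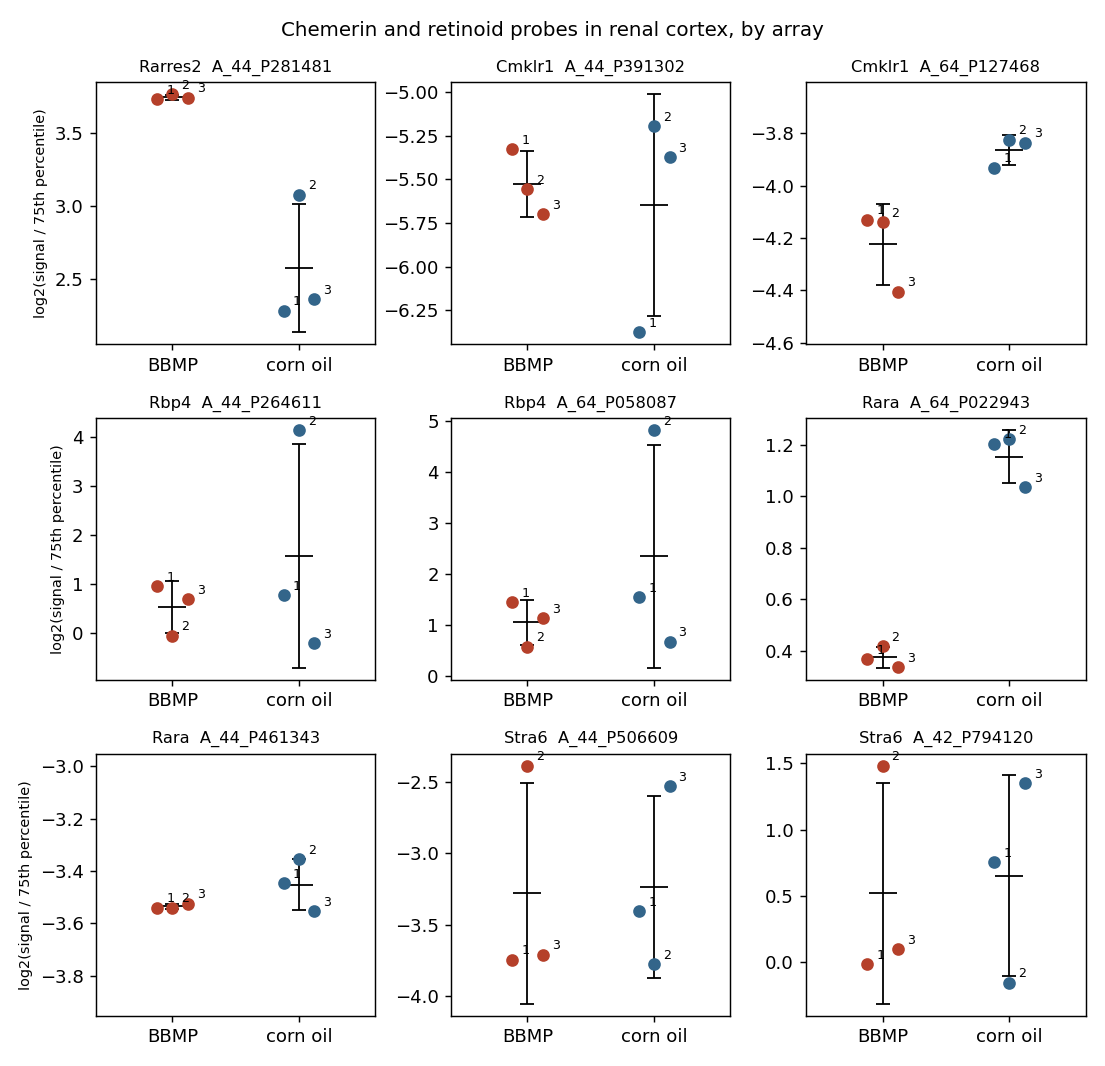
Log2 signal over the 75th percentile of the array for the 9 probes, 1 panel per probe with its own axis, BBMP left and corn oil right. Points are animals with their replicate number, the bar is the mean and the whiskers are 1 SD (n = 3); Rarres2 separates the groups with BBMP higher, Rara A_64_P022943 and Cmklr1 A_64_P127468 separate them with BBMP lower, and corn oil 2 stands far above every other animal at both Rbp4 probes.

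Cmklr1, the G protein-coupled receptor through which chemerin attracts leukocytes, was dim. Probe A_64_P127468 read 0.0571, 0.0568 and 0.0472 in BBMP cortex, against 0.0656, 0.0706 and 0.0701 in corn oil cortex. All 3 BBMP values were below all 3 corn oil values. The difference was −0.36 on the log2 scale (SE 0.095, 95% interval −0.59 to −0.13), and its adjusted p of 0.0511 in limma missed the threshold. Probes of like brightness had a median difference of 0.15. The probe was called lower under 5 alternatives, with adjusted p-values of 0.0249 with cyclic loess, 0.034 with median scaling, 0.0355 with quantile normalization, 0.0124 with normexp and 0.0449 when only probes well above background on all arrays were tested. Under 15 other alternatives it was not called. Among these, the adjusted p in limma was 0.0508 with 1 probe per gene, 0.0641 with no filter on dim probes and 0.118 with the replicate number as a block. The dimmer probe A_44_P391302 read 0.0249, 0.0212 and 0.0193 with BBMP and 0.0120, 0.0273 and 0.0241 with corn oil. These groups overlapped, and on the corn oil arrays the probe was well above background in 2 of 3 animals. Its difference was 0.12 (SE 0.32, 95% interval −0.67 to 0.91, adjusted p = 0.815 in limma), and its sign turned with normexp, with quantile normalization, in the fits by slide row and without corn oil 1.

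Ccrl2, a chemerin receptor that binds and presents the protein without signalling itself, was called higher. Its log2 level was −1.46, −1.72 and −1.48 with BBMP and −2.03, −1.90 and −2.06 with corn oil, with no overlap. The difference was 0.44 (SE 0.096, 1.36-fold, adjusted p = 0.0328 in limma). Among all genes and sequences, each represented by its brightest tested probe, 10.2% were called higher and 7.67% lower. The third chemerin receptor, Cmklr2, was well above background on no array. In corn oil 2, the control with the highest Rarres2, Ccrl2 was also the highest of the controls, while its level there stayed below all BBMP animals.

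Among 18 proteases and related enzymes listed with chemerin, many of them known to act on it, 13 were tested. Of these, 2 were called higher and 0 lower, beside 10.2% and 7.67% of all genes and sequences. Another 4 were well above background on no array. These 4 were the neutrophil proteases Elane and Ctsg, the skin kallikrein Klk7 and the carboxypeptidase subunit Cpn2. Plg encodes plasminogen, whose active form plasmin cleaves chemerin. Its log2 level was 1.09, 0.90 and 1.03 with BBMP and 0.50, 0.43 and 0.40 with corn oil, a difference of 0.56 (SE 0.073, 1.48-fold, adjusted p = 0.0135). Mmp2, a gelatinase of the extracellular matrix, was 0.67 higher (SE 0.084, 1.59-fold, adjusted p = 0.0131), and its other tested probe differed by 0.47 without a call. For both genes the lowest BBMP animal lay above the highest control, where the groups did not overlap at 43.4% of all tested probes. The brightest genes of the list were not called: the lysosomal protease Ctsl differed by −0.21 (adjusted p = 0.204) and tissue plasminogen activator, Plat, by −0.017 (adjusted p = 0.898, all limma). The sign of Plat turned with normexp, in the fits by slide row and without single arrays.

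**Figure D2:**
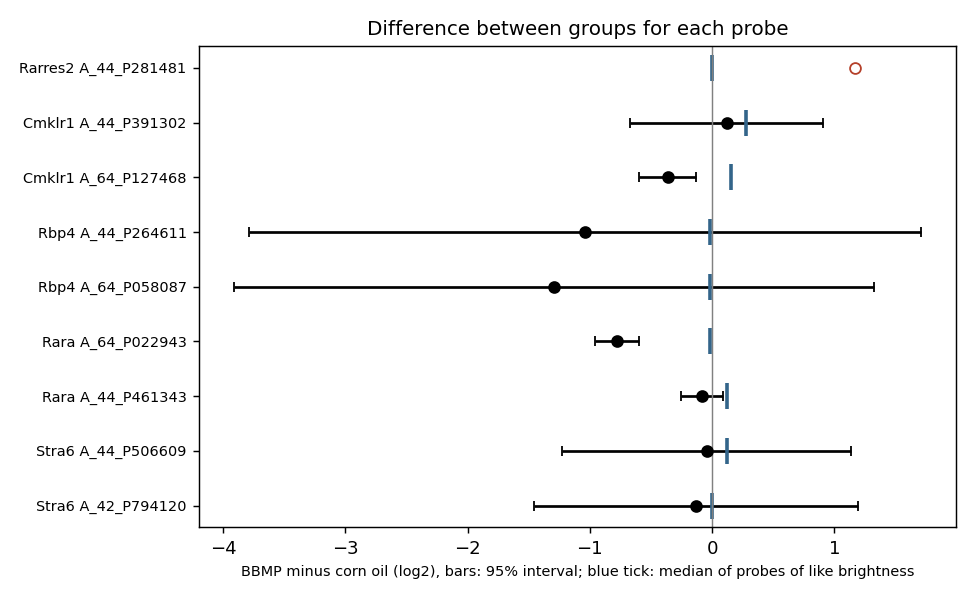
Difference between BBMP and corn oil on the log2 scale for each of the 9 probes, with the 95% interval of the limma fit as bars and the median difference of the probes of like brightness as a blue tick. Rarres2 is drawn open and without an interval because its change chose the genes; the interval of Rara A_64_P022943 ends at −0.60, while those of both Rbp4 and both Stra6 probes span 0.

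Rbp4, the plasma carrier of retinol, showed no difference between the groups beyond its spread, and that spread came from 1 control animal. The brighter probe A_64_P058087 read 2.72, 1.49 and 2.19 with BBMP, against 2.92, 28.2 and 1.59 with corn oil. The other probe, A_44_P264611, read 1.95, 0.961 and 1.61 with BBMP, against 1.71, 17.7 and 0.865 with corn oil. Corn oil 2 was the highest animal at both probes, 9.68-fold and 9.10-fold above the next one, and the remaining 5 animals of both groups overlapped. The differences were −1.30 (SE 1.06, 95% interval −3.91 to 1.32, adjusted p = 0.421) and −1.04 (SE 1.12, 95% interval −3.79 to 1.71, adjusted p = 0.540) in limma. Without corn oil 2 they were −0.058 and 0.25. These intervals leave room for large changes either way.

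The lone high value was rare on this array. Among 39872 probes well above background on all 6 arrays, only 35 and 31 had a wider range over the animals than the brighter and the dimmer Rbp4 probe. A larger gap between the highest and the second animal was found at 4 and 5 probes. Both Rbp4 probes read the high value. Liver is the main source of RBP4, and of 8 hepatocyte markers, 7 were tested, 0 were called in either direction and Tat was well above background on no array. The summed hepatocyte level of corn oil 2 was 3.16, the lowest of all 6 animals, where BBMP animals had 4.04 to 5.48 and corn oil animals 3.16 to 6.98. Alb and Fga carried most of this sum. The order of the animals differed between markers: Fga was lowest in corn oil 2 (log2 level 0.51), but Alb was lower in BBMP 3 (−2.29) than in corn oil 2 (−1.24). Adipose tissue also makes RBP4 and chemerin. The summed level of the 5 tested adipocyte markers was 1.67 to 2.59 with BBMP and 1.24 to 1.93 with corn oil, with 1.93 in corn oil 2, 0 of the 5 called and the leptin gene Lep well above background on no array. Any part of liver or adipose tissue in the Rbp4 values was not tested. In the authors' deposited table the same high values, 28.3 and 17.8 in ratio units, stand in the column of corn oil 3, because each column of that table matches the scanner file of another animal of its own group.

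Stra6, the membrane receptor that takes up retinol from RBP4, varied within both groups, which overlapped. Probe A_42_P794120 read 0.988, 2.79 and 1.07 with BBMP, against 1.69, 0.899 and 2.55 with corn oil. Probe A_44_P506609 read 0.0746, 0.191 and 0.0765 with BBMP, against 0.0945, 0.0731 and 0.173 with corn oil. Both probes ordered the 6 animals alike, with corn oil 2 lowest and BBMP 2 highest. The differences were −0.13 (SE 0.54, 95% interval −1.46 to 1.20, adjusted p = 0.883) and −0.043 (SE 0.48, 95% interval −1.22 to 1.14, adjusted p = 0.958) in limma, and their signs turned with array weights and when single arrays were left out. BBMP 2 was 3.11-fold above corn oil 2 at the first probe and 2.61-fold at the second. The animal with the highest Rbp4, corn oil 2, had the lowest Stra6, and BBMP 2 and corn oil 3, which had the lowest signal at the brighter Rbp4 probe, had the highest Stra6. This pattern was seen in the values and not tested. It did not hold in all animals: corn oil 1, next below corn oil 2 at the brighter Rbp4 probe, was above BBMP 1 and BBMP 3 for Stra6.

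**Figure D3:**
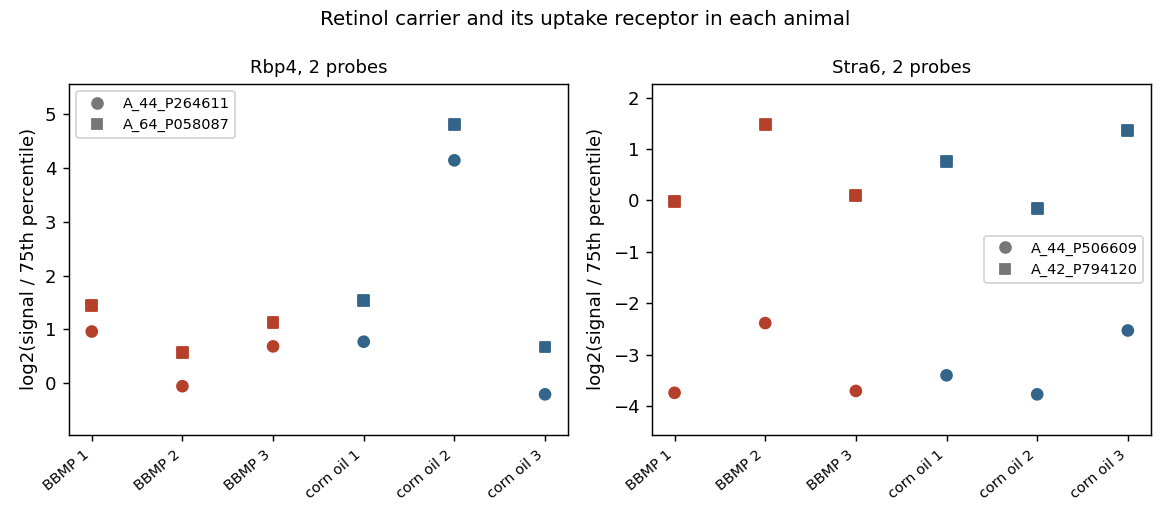
Log2 signal over the 75th percentile of the array for both probes of Rbp4 (left panel) and both probes of Stra6 (right panel) in each animal, BBMP in red and corn oil in blue. Rbp4 stands apart in corn oil 2 at both probes (28.2 and 17.7 over the 75th percentile), where Stra6 is lowest (0.899 and 0.0731).

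Of 15 other genes of retinoid carriage and uptake, 10 were tested. At the brightest probe 1 was called higher and 0 lower, beside 10.2% and 7.67% of all genes and sequences. Scarb1, named here for its other probes, was 0.31 higher at its brightest probe without a call (adjusted p = 0.0633 in limma). Its other 2 tested probes were called higher, at 0.44 and 0.40. Lrp1, a large endocytic receptor related to megalin, had log2 levels of −1.60, −1.78 and −1.67 with BBMP and −2.71, −2.65 and −2.24 with corn oil, with no overlap. It was 0.85 higher (SE 0.14, 1.81-fold, adjusted p = 0.0183 in limma), and its other probe was called too, at 0.65. Within slide row 1, which holds the 3 BBMP arrays and of the controls only corn oil 3, the control with the highest Lrp1, the difference was 0.56. Megalin itself, Lrp2, which takes RBP4 back up from the filtrate, differed by −0.080 (SE 0.069, adjusted p = 0.439), with a sign that turned with normexp. Ttr, which encodes transthyretin and was picked out after its values were seen because it travels with RBP4, had log2 levels of 0.44, −1.05 and −3.00 with BBMP and −0.16, −1.79 and 1.08 with corn oil. These overlapped widely (difference −0.91, SE 1.07, adjusted p = 0.575), and corn oil 2 was not high for Ttr. The retinoid-binding proteins Rbp7 and Rlbp1 were well above background on no array.

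Of 31 retinoid enzymes, 22 were tested. At the brightest probe 3 were called higher and 0 lower, beside 10.2% and 7.67% of all genes and sequences. Aldh8a1, an aldehyde dehydrogenase that oxidizes 9-cis retinal, was 0.38 higher (SE 0.071, 1.30-fold, adjusted p = 0.0236). Dgat1, which makes triglycerides and can also esterify retinol, was 0.36 higher (SE 0.059, 1.28-fold, adjusted p = 0.0190), with its other probe called at 0.32. Rdh12, a retinal reductase best known from photoreceptors, was dim and 0.60 higher (SE 0.088, 1.51-fold, adjusted p = 0.0160 in limma), but after normexp its difference was 0.092 with an adjusted p of 0.278. At each of these 3 genes the groups did not overlap, as at 43.4% of all tested probes. The brightest enzymes were not called: Aldh1a1, which makes retinoic acid from retinal, differed by 0.040 (SE 0.061, adjusted p = 0.671), with its sign turned by median scaling, and the alcohol dehydrogenase Adh5 by −0.043 (SE 0.056, adjusted p = 0.619).

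Rara, the nuclear receptor through which retinoic acid acts in most tissues, was lower at its brighter probe. Probe A_64_P022943 read 1.29, 1.34 and 1.26 in BBMP cortex, against 2.30, 2.33 and 2.05 in corn oil cortex, with every treated animal below every control. The log2 mean was 0.37 ± 0.041 with BBMP and 1.15 ± 0.10 with corn oil (SD, n = 3 each). The difference was −0.78 (SE 0.074, 95% interval −0.96 to −0.60, 1.72-fold lower, adjusted p = 0.0113 in limma), where probes of like brightness had a median difference of −0.013. The call was lost without BBMP 1 (adjusted p = 0.0516) and without BBMP 2 (adjusted p = 0.0559), while the difference stayed between −0.84 and −0.74 over all single arrays left out. With slide row as a block, which compares the 3 BBMP arrays with corn oil 3 alone because no other control lay in their row, the difference was −0.66 (adjusted p = 0.0917). The second probe, A_44_P461343, was dimmer and read 0.0859, 0.0859 and 0.0868 with BBMP, against 0.0917, 0.0977 and 0.0852 with corn oil. Its groups overlapped and its difference was −0.084 (SE 0.070, 95% interval −0.26 to 0.088, adjusted p = 0.428), with a call only after normexp (−0.23, adjusted p = 0.0299). The interval of the second probe does not reach the value of the first, so the probes of Rara disagree in size, and which transcripts each binds was not resolved here.

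Of 12 other nuclear receptors and cofactors, 9 were tested. At the brightest probe 1 was called higher and 0 lower, beside 10.2% and 7.67% of all genes and sequences. Nrip1, a cofactor named here for its other probes, was called lower at 1 of them (−0.71). Rxrb, an obligate partner of RAR, had log2 levels of 0.70, 0.83 and 0.87 with BBMP and 0.40, 0.53 and 0.52 with corn oil. It was 0.32 higher (SE 0.074, 1.25-fold, adjusted p = 0.0385 in limma), its other probe was called at 0.37, and with median scaling the difference was 0.24 with an adjusted p of 0.0789. Rxrg, another partner, differed by −0.013 (SE 0.14, adjusted p = 0.957), with a sign that turned with normexp, in the fits by slide row and without single arrays. Rarg and Rxra, named here after their values were seen to complete the receptor family, differed by 0.16 (adjusted p = 0.244) and 0.34 (adjusted p = 0.101). Of the receptors of this family that were measured, Rara was thus the one whose brightest probe was called lower.

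Of 22 genes known to respond to retinoic acid, 17 were tested. At the brightest probe 0 were called higher and 1 lower, where 10.2% and 7.67% of all genes and sequences were called. Rai14, a gene first described as induced by retinoic acid, was 0.33 lower at its brightest probe (difference −0.33, SE 0.083, 1.26-fold lower, adjusted p = 0.0449 in limma). Its other probe differed by 0.13 in the opposite direction, and after normexp the difference was −0.18 with an adjusted p of 0.118. Tgm2, a transglutaminase, differed by −0.067 (adjusted p = 0.521) and was not called. Nrip1, also on this list, was not called at its brightest probe (0.019). Of its 3 other tested probes, 1 was called lower at −0.71, and the rest differed by 0.18 and 0.075. Cyp26b1, which breaks down retinoic acid and was picked out after its values were seen, had log2 levels of 0.74, 0.70 and 0.95 with BBMP and −0.0027, −0.10 and 0.87 with corn oil. Its groups overlapped through corn oil 3 (difference 0.54, SE 0.27, adjusted p = 0.205).

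Counting each gene once, the 6 lists held 93 genes, of which 81 had a probe and 65 were tested. Of these, 8 (12.3%) were called higher and 1 (1.54%) lower at the brightest probe, beside 10.2% and 7.67% of all genes and sequences. The median difference was 0.092 over the 65 genes and 0.049 over all genes and sequences. No called gene of these lists changed as much as 2-fold. Without BBMP 1 or without BBMP 2, limma called 0 of the 65 genes, with 13 at an unadjusted p under 0.05 in each case. Without BBMP 3, corn oil 1 or corn oil 2 it called 2 or 3, and without corn oil 3 it called 7 higher and 2 lower. The call of Ccrl2 was lost without any one of the 6 arrays (adjusted p of 0.0569 to 0.0982), as was that of Rxrb (adjusted p of 0.0689 to 0.112). With slide row as a block, where corn oil 3 is the only control in the row of the BBMP arrays, limma called 0 of the 65 genes and had 13 at an unadjusted p under 0.05.

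**Figure D4:**
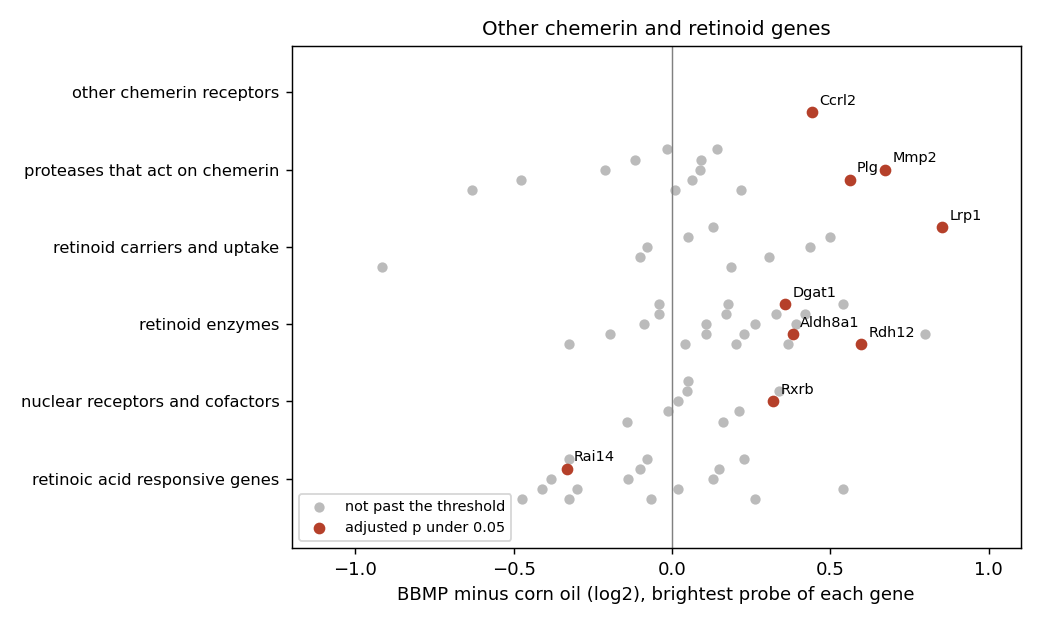
Difference between BBMP and corn oil on the log2 scale for the brightest tested probe of each gene of the 6 lists, 1 row per list, with called genes in red and named and all others in grey. The 8 genes called higher lie between 0.32 and 0.85, the 1 called lower, Rai14, lies at −0.33.

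Markers of other cell types were read beside these results, and their part in the results was not tested. Their counts of calls stand beside 10.2% called higher and 7.67% lower among all genes and sequences. Lyz2 and Cd74 carried most of the macrophage and dendritic cell sum below, and Tpsab1 most of the mast cell sum. Chemerin is made by adipocytes, hepatocytes and fibroblasts, and its receptors are on macrophages and natural killer cells. The fibroblast and pericyte markers, 6 tested and 0 called, summed to 26.3 to 33.8 with BBMP and 24.6 to 28.3 with corn oil. Of the macrophage and dendritic cell markers, 1 of 6 tested was called higher, Csf1r, the receptor for macrophage growth factor (0.42, SE 0.084, adjusted p = 0.0276 in limma), while their summed level was 101 to 144 with BBMP and 121 to 156 with corn oil. Adgre1 was also higher (0.14), and Cd68, Lyz2, Mrc1 and Cd74 were lower (−0.026, −0.14, −0.35 and −0.088), all without a call. The natural killer cell markers, 6 tested and 0 called, summed to 2.36 to 2.63 with BBMP and 1.69 to 2.28 with corn oil. These ranges did not overlap, where the groups did not overlap at 43.4% of all tested probes. Klrk1 and Nkg7 carried most of the sum. Klrd1 and Gzmb were lower with BBMP (−0.087 and −0.077) and the other tested markers higher. The defining receptor Ncr1 was well above background on no array. The brightest of these genes, Klrk1, differed by 0.37 (adjusted p = 0.0601), while its other 2 tested probes were lower with BBMP without a call. The mast cell markers, 2 tested and 0 called, summed to 2.14 to 2.38 with BBMP and 1.91 to 2.31 with corn oil, with Cma1, Cpa3 and Ms4a2 well above background on no array.

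Markers of tissue from outside the cortex, and of the endothelium within it, were read in the same way. Th carried most of the adrenal sum, Krt7 most of the sum for medulla, papilla and urothelium, and Kdr most of the endothelial sum. The 4 tested adrenal markers summed to 3.37 to 3.54 with BBMP and 2.68 to 2.71 with corn oil, with 2 called higher: Cyp21a1, the steroid 21-hydroxylase gene (0.59, adjusted p = 0.0299), and Th, which makes catecholamines (0.36, adjusted p = 0.0170, both limma). The other tested probe of Th differed by −0.46, in the opposite direction, without a call. The adrenal cortex genes Cyp11b1 and Star were well above background on no array. The markers of medulla, papilla and urothelium summed to 16.7 to 17.1 with BBMP and 17.0 to 18.5 with corn oil, with Upk1b called higher among 5 tested (0.69, adjusted p = 0.0376). The call of Upk1b was lost with normexp (0.28, adjusted p = 0.169), cyclic loess, median scaling, quantile normalization and no filter, and without any one of the 6 arrays. Endothelial markers summed to 30.7 to 32.1 with BBMP and 30.9 to 39.0 with corn oil, with Cdh5 called higher among 6 (0.51, adjusted p = 0.0160 in limma). Its other tested probe differed by 0.35 without a call. At their brightest probes Pecam1, Kdr and Emcn were lower with BBMP (−0.34, −0.19 and −0.047) and Tek and Flt1 higher (0.55 and 0.21), all without a call.

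The genes whose profile over the 6 animals was most like that of Rarres2 were sought among 19986 named probes well above background on all arrays, by the root mean square difference of log2 values after each profile was centred on its own mean. The nearest were Hsf4, a heat shock transcription factor (0.17), the kinase gene Stk32c (0.18), Abcc4, an efflux transporter of the proximal tubule (0.18), the AMP deaminase gene Ampd2 (0.19) and Chrna2, a nicotinic receptor subunit (0.20). In each of the 5, as in Rarres2, the BBMP animals were above the controls and corn oil 2 was the highest control. Abcc4 had log2 levels of 0.96, 1.05 and 1.14 with BBMP and −0.11, 0.28 and 0.041 with corn oil. The other 4 were dim, with log2 levels between −3.93 and −3.05 with BBMP and between −5.10 and −3.86 with corn oil. The measure takes in the group difference for which Rarres2 was chosen, and no test was made.

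**Figure D5:**
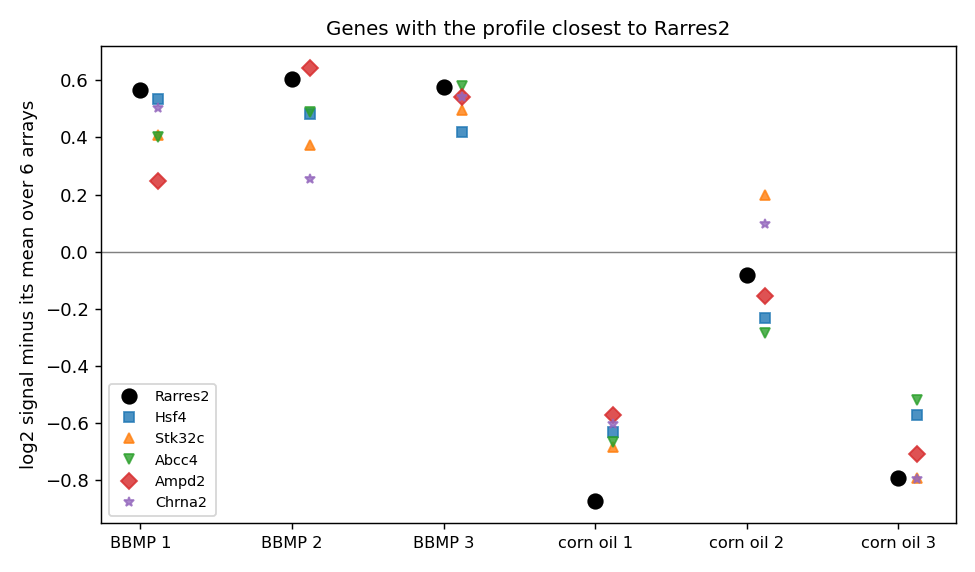
Log2 signal of Rarres2 (black) and of the 5 genes with the closest profile in each animal, each centred on its own mean over the 6 arrays. All 6 genes are above 0 in the 3 BBMP animals and below 0 in corn oil 1 and corn oil 3; in corn oil 2 they lie nearer to 0, with Stk32c and Chrna2 above it.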

How the data were processed

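Renal cortex RNA of 3 BBMP and 3 corn oil rats was read on 1-colour arrays, 1 per animal, and grouped by the labels' treatment field. Per the file headers, each scanner file was made with Agilent Feature Extraction 10.7.1.1 (10.7 per the submitters' processing notes) and holds the processed intensity, with background removed, on a linear scale, beside the raw median intensity and its local background. Per the file headers, spot flags are a score of 0 or 1. The authors' deposited table gives a ratio per probe and array. The table does not say how it was made. Set against the scanner files each column was found to equal the processed signal over the 75th percentile of 1 array of the same group, but of another animal (median absolute log2 difference of 0.0036 to 0.0058). Column medians were 0.1064 to 0.1131. Replicate numbers are therefore uncertain and groups are not, and the scanner files were used as labelled.

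From 61657 probes that are not controls, 84 ERCC spike-in probes and 10 with an outlier flag were left out, leaving 61563, of which 27452 were named by matching unversioned RefSeq transcripts to current rat symbols of GRCr8. The array design is based on rn4, and no gene coordinates were taken across builds. Log2 signal minus the 75th percentile of its array was tested two-sided, without covariates, by lmFit and eBayes of limma 3.58.1 (R 4.3.3). A probe was tested if in at least 1 group it was flagged well above background on all 3 arrays, which left 42657 probes. The p-values were adjusted by Benjamini-Hochberg over all of these, and a call is an adjusted p under 0.05. A gene outside the 6 members is represented by its brightest tested probe. Named in the text are all members, every called gene of a list, its 2 brightest genes not called, called or brightest markers, and the 5 profiles nearest to Rarres2. Some genes that this rule picks are not reported here. The members and lists were chosen with earlier results of these data known. On simulated arrays of 42657 probes, the fit recovered 43.3% of 67 probes changed 1.5-fold, 56.7% of 67 changed 2-fold and 89.4% of 66 changed 4-fold, with 9 false calls. Only these probes were changed there, far fewer than limma called on the real arrays. The adjusted threshold was therefore stricter in the simulation, and its shares do not give the recovery on the real arrays. Precision is limited by the number of arrays. Promoter motifs were counted in Python 3.11.15 and figures drawn with matplotlib 3.10.9. The alternatives were other background corrections (normexp with an offset of 50 on median signals), scalings, filters, blocks, weights and single arrays left out. Same-numbered BBMP and corn oil animals did not deviate together (correlations of −0.13, −0.091 and −0.084), so replicate numbers were not taken as pairs.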

Additional observations from a re-analysis of the deposited data

How the results depend on the processing

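Rarres2 stayed higher with BBMP by 1.02 to 1.42 under every alternative run, and the brighter Rara probe stayed lower by a log2 difference of −0.85 to −0.66. Calls depended on which arrays and terms entered the fit. Leaving out 1 array gave 3 to 5522 calls over all probes, 0 to 1 member probe called lower, 0 to 7 other chemerin and retinoid genes called higher and 0 to 2 lower. The 2 lowest counts, 3 and 4, came without BBMP 1 and BBMP 2. With the replicate number as a block (replicate block), with slide row as a block and within slide row 1, limma called 0 of 42657 probes, among them 0 member probes and 0 list genes, with 13386, 9711 and 9561 probes at an unadjusted p under 0.05. Among these were 2, 2 and 1 member probes and, of the list genes, 17, 13 and 12. Both fits by slide row compare the 3 BBMP arrays with corn oil 3 alone, the only control in their row, which is assumed to vary like the other arrays. The 3 fits hold fewer residual degrees of freedom, and the numbers do not pair the animals. A minimum of 2-fold left 265 probes, with 0 member probes and 0 list genes in either direction. The member probes called lower were 2 with cyclic loess, median scaling, quantile normalization and the filter on all arrays, and 3 with normexp, and 0 were called higher under each alternative. The count of list genes called lower was 0 with cyclic loess, the mean of all probes and no filter. Normexp called 10838 probes, of which 36.9% were higher, median scaling 7643 (36.1%), cyclic loess 7299 (46.8%) and no filter 6228 (46.4%), against 58.1% of 7594. With array weights Stra6 differed by 0.11 and 0.055, with median scaling Aldh1a1 by −0.035, and with quantile normalization the dimmer Cmklr1 probe by −0.024. With normexp this Cmklr1 probe differed by −0.25, Plat by 0.060, Lrp2 by 0.047, Rxrg by 0.065 and the transporter Slc13a3 by 0.098. Both fits by slide row gave −0.15 for it, 0.74 and 0.38 for Rbp4, 0.018 for the dimmer Rara probe, 0.014 for Plat, 0.11 for Rxrg, 0.011 for Tgm2, −0.030 for the mast cell gene Tpsab1 and 0.00027 for Slc13a3. With 1 array left out, the differences ranged from −0.61 to 0.22 and −0.49 to 0.31 for the Stra6 probes, −1.93 to 0.25 and −2.13 to −0.058 for Rbp4, −0.24 to 0.35 for the dimmer Cmklr1 probe, −0.27 to 0.067 for Lyz2, −0.069 to 0.052 for Plat and −0.14 to 0.077 for Rxrg. The cause of these changes was not tested.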

Other observations

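The named probes whose profiles were nearest to those of the brighter Rbp4 and Stra6 probes were picked out after the values were seen, by the same measure as for Rarres2 and among the same 19986 probes. Genes nearest to Rbp4 included Cstf2t (root mean square difference 0.63), Adamts15 (0.65), Atoh7 (0.67) and Fkbp5 (0.85), each with its highest level in corn oil 2. Fkbp5, a co-chaperone of the glucocorticoid receptor and a known glucocorticoid target, had log2 levels of 1.75, 1.45 and 2.66 with BBMP and 1.48, 3.64 and 1.46 with corn oil. The genes nearest to Stra6 were Pals1 (0.22), Gimd1 (0.25), Doc2a (0.27), Actrt2 (0.28) and Sult1c3 (0.29). Pals1, a scaffold protein of epithelial polarity, had log2 levels of −1.24, −0.35 and −1.38 with BBMP and −0.71, −1.33 and −0.23 with corn oil, so that BBMP 2 and corn oil 3 were the highest animals, as for Stra6. Sult1c3, a sulfotransferase, had log2 levels of −1.86, −0.65 and −1.92 with BBMP and −1.50, −2.93 and −0.97 with corn oil, again with BBMP 2 and corn oil 3 highest and corn oil 2 lowest. These are values of single animals, and no test was made of them.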
